A study of Mus musculus with 4 samples.

Results

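Mast cells were followed in these lungs through 9 genes that mark them or act on them. They are the granule proteases Cpa3, Cma1, Mcpt4 and Tpsb2, the IgE receptor subunits Ms4a2 and Fcer1a, the histamine-forming enzyme Hdc, the growth factor receptor Kit and its ligand Kitl. The genes were chosen by name, with earlier results of these data known. Every probe carrying one of the names was kept, which gave 12 of the 41174 probes and 30 of the 43379 spots per array that were not controls. The array's own annotation held 8 of the 9 names, and Tpsb2 stood there under its older name Mcpt6 and was matched by its RefSeq accession. Of the 9 genes, 8 were tested, by 11 probes, among 20611 genes and 29991 probes in all, and Hdc was kept out of the test because 3 of its 4 spots carried a warning mark.

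Mast cells arise from blood-forming progenitors, enter tissues as immature cells and mature there, in the lung mostly around airways and vessels. Their survival and maturation depend on Kit, a receptor tyrosine kinase, and on Kitl, also called stem cell factor, which stromal, endothelial and epithelial cells make. Mature cells store proteases and histamine in granules and release them when an antigen joins the IgE held on their high-affinity receptor.

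To determine how reduced Fgf8 changes gene expression in the fetal lung, fetuses of the hypomorphic genotype Fgf8H/-, called AP/N in the sample titles, were compared with wild type littermates (Fgf8+/+) at E18.5, shortly before birth. Both genotypes were on the background that the labels spell c57nl7/sv129, and the lobes had been freed of large airways and vessels before RNA was taken. Each of the 4 arrays held 1 wild type pool in Cy3 and 1 hypomorph pool in Cy5, and a pool joined the lungs of 3 fetuses, so that single animals cannot be seen and n = 4 pools per genotype. There was no dye swap, and a probe that favours 1 dye therefore cannot be told apart from a gene that differs between genotypes.

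Ratios are log2 of hypomorph over wild type, with mean ± SD over 4 arrays except where n = 3 is given, and a gene was called higher or lower at an adjusted p under 0.05 in limma's moderated test over all 20611 genes. Of the spots on an array, 32491 to 33744 stood well above background in the wild type channel, and 32731 to 34519 did in the hypomorph channel. The spike-in controls returned 0.690 to 0.718 of the log ratios they should have shown, so ratios are compressed. Fgf8 itself read -0.31, -0.23, -0.09 and -0.09 on the 4 arrays by 1 probe (-0.18 ± 0.11, adjusted p = 0.0549), and its other probe was not well above background on any array. The RNA carried the lung's epithelial markers, of which 13 of 15 were tested and all 15 were well above background on at least 1 array. Of the mast cell markers, Mrgprb1 and Mrgprb2, receptors of connective tissue mast cells, and Mcpt1 and Mcpt2, proteases of mucosal mast cells, were not well above background on any array.

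Of the 8 mast cell genes tested, Kit was higher and Cpa3, Cma1 and Kitl were lower in the hypomorph, and the other 4 did not pass the test. Over all genes, 27.2% were called, 14% higher and 13.2% lower. The mast cell genes had a median log2 ratio of -0.09, beside -0.00 for all genes. By probe, 1 of the 11 tested was higher and 5 were lower, beside 24.9% of all probes called. These are bulk samples, in which fewer mast cells and less RNA per mast cell cannot be told apart.

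**Figure D1:**
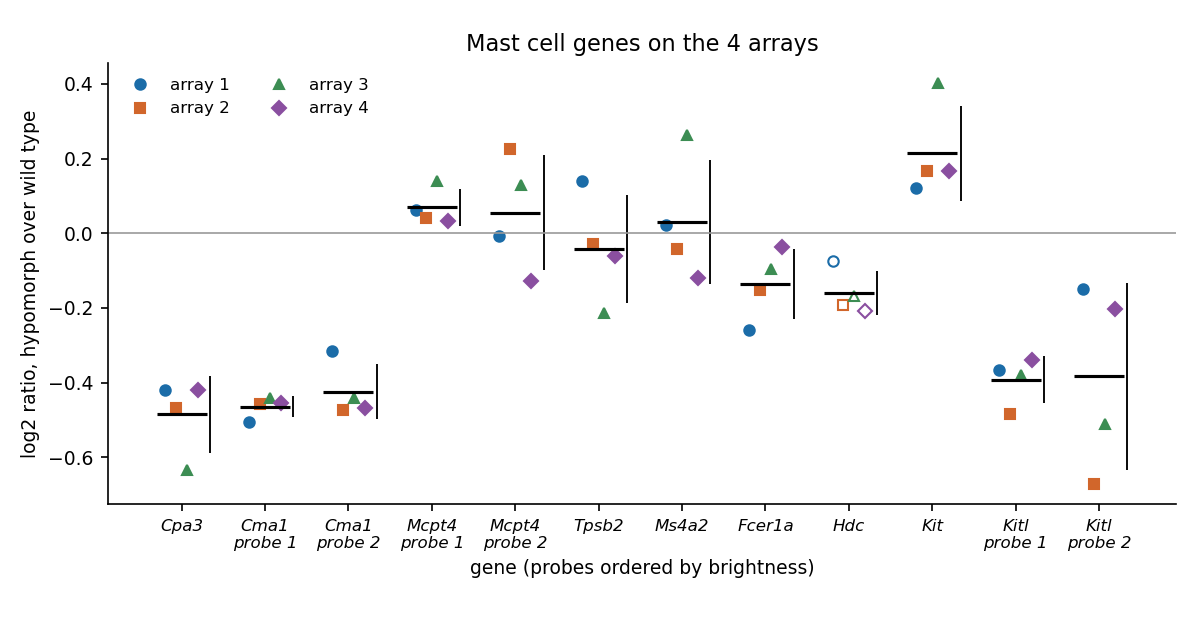
Log2 ratio of hypomorph over wild type for the 12 probes of the 9 mast cell genes, 1 symbol per array, with the mean as a horizontal bar and the SD as a vertical line. Cpa3, Cma1 and Kitl lay below 0 on all 4 arrays and Kit above 0 on all 4. Of all genes with 4 values, 52% had the same sign on 4 of 4 arrays. The open symbols of Hdc are spots with a warning mark or beside such spots, shown with background marks ignored.

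The proteases of the granule came first. Cpa3 encodes the carboxypeptidase of mast cell granules, and Cma1 a chymase, a serine protease stored with it. Their promoters are printed here with those of Mcpt4, another chymase, and of Kitl, because Cpa3 and Cma1 fell, Mcpt4 did not pass the test and Kitl is the ligand among the genes. Each sequence is the 250 bases before the start of the gene in RefSeq (assembly GRCm38.p6), read 5′ to 3′ on the gene's strand, with words of the kind that GATA factors bind in capitals: AGATAA or AGATAG or TGATAA or TGATAG on either strand. The stretches are chr3:20242182-20242431 on the minus strand for Cpa3, chr14:55944676-55944925 on the minus strand for Cma1, chr14:56062311-56062560 on the minus strand for Mcpt4 and chr10:100015571-100015820 on the plus strand for Kitl.
Cpa3: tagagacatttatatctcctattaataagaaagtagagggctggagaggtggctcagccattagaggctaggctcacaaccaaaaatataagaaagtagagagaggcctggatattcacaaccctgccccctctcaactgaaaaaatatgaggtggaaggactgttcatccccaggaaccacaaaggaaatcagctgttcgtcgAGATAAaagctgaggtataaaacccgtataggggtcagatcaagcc
Cma1: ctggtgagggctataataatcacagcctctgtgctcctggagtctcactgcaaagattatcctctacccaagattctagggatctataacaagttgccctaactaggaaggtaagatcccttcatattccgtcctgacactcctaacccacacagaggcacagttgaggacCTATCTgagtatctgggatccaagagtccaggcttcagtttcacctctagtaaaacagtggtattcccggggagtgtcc
Mcpt4: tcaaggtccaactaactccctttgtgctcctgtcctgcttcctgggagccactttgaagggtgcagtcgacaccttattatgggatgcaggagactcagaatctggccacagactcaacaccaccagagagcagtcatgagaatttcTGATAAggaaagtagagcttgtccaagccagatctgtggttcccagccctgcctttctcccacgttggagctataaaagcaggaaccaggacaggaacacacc
Kitl: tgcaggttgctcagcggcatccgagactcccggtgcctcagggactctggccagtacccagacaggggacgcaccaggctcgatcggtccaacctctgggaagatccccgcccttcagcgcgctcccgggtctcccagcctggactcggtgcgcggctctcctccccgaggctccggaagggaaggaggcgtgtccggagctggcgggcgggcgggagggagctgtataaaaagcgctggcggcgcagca

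GATA factors, above all GATA2, are known to act in mast cells. The word lay 46 bases before the start in Cpa3, 79 in Cma1, as CTATCT on this strand, and 103 in Mcpt4. Of the 9 genes, 8 had an entry among these promoters, and 6 of the 8 held at least 1 word: the 3 above, Ms4a2 with 3, Fcer1a with 1 and Hdc with 1. Neither Kit nor Kitl held one in this window, which says only that the letters are not there. Of all 32851 promoters of the same length, 26.5% held a word, and 6.4% held 2 or more. An E-box of the kind bound by MITF, CATGTG or CACGTG on either strand, lay in Fcer1a alone among the 8, beside 17.6% of all promoters. The letters TATAAA stood within the last 50 bases in Cpa3, Mcpt4 and Kitl, and in 2.63% of all promoters. These matches are descriptions of letters, and the word was present in genes that fell and in genes that did not pass the test.

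Cpa3 was read by 1 probe on chromosome 3, at 20407825 to 20407884 (mm8). The normalised log2 intensity in the wild type pools was 10.38, 10.21, 10.18 and 9.95 on arrays 1 to 4, and 9.96, 9.74, 9.54 and 9.53 in the hypomorph pools on the same arrays. The hypomorph pool was the lower of the pair on every array, with the gap widest on array 3. Across arrays, the lowest wild type value lay below the highest hypomorph value. The log2 ratios of -0.42, -0.47, -0.63 and -0.42 gave a mean of -0.48 ± 0.10, which is 1.40-fold lower (limma, adjusted p = 0.00372). Among the 3545 probes within 0.5 log2 units of its brightness, only 3.58% had a lower ratio. The call held under all 20 alternative settings, with log2 ratios from -0.51 to -0.33, although several settings leave the ratio as it was.

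Cma1 was read by a brighter probe at chromosome 14, 54895688 to 54895747, and by a dimmer one whose interval runs from 54896725 to 54897784, both in mm8. By the brighter probe, the wild type pools read 10.38, 10.45, 10.33 and 10.46 in normalised log2 intensity and the hypomorph pools 9.87, 9.99, 9.89 and 10.002. The 2 genotypes did not overlap in these values, which were not scaled between arrays, and the drop was nearly the same on every array. The share of all genes without overlap was not taken. The log2 ratios were -0.51, -0.46, -0.44 and -0.46 (-0.46 ± 0.03, 1.38-fold lower, limma, adjusted p = 0.00204). The dimmer probe gave -0.31, -0.47, -0.44 and -0.47 (-0.42 ± 0.07, limma over all probes, adjusted p = 0.00368), so the readings of both probes agreed within the spread between arrays. The gene was called under all 20 alternatives, from -0.48 to -0.30.

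**Figure D2:**
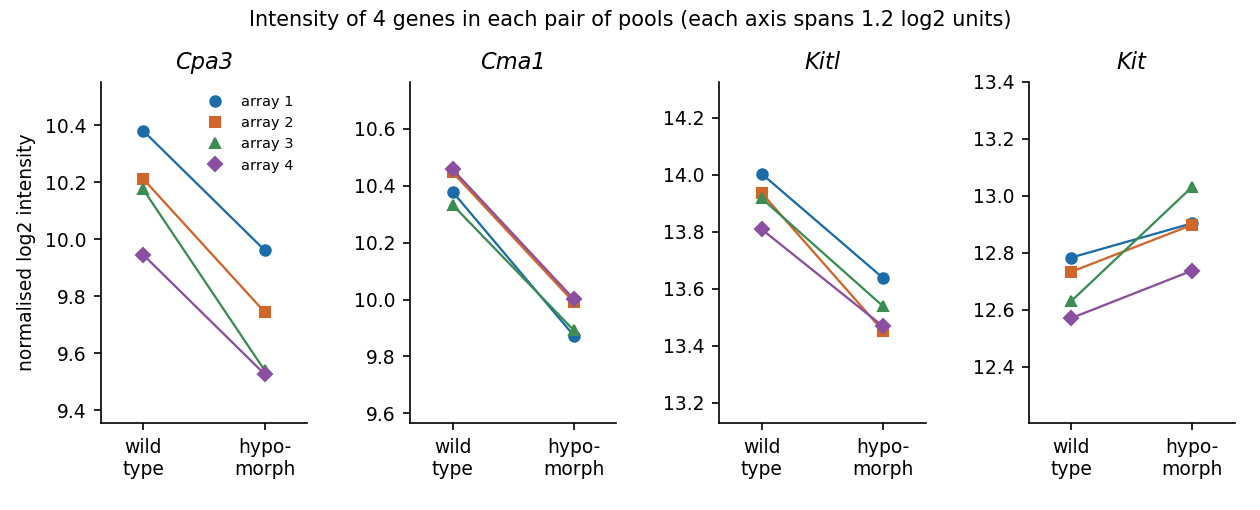
Normalised log2 intensity of the wild type and the hypomorph pool on each array, joined by a line, for Cpa3, Cma1, Kitl and Kit by their brightest probes; the vertical axes differ in position and span the same range. All 4 lines fall for Cpa3, Cma1 and Kitl and rise for Kit, with the steepest rise of Kit on array 3, from 12.63 to 13.03. The same sign on 4 of 4 arrays was found for 52% of all genes with 4 values.

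The other proteases among the 9 genes did not pass the test, and whether their ratios differ from those of Cpa3 and Cma1 was not tested. Mcpt4, the chymase of connective tissue mast cells in mice, gave 0.06, 0.04, 0.14 and 0.03 by its brighter probe at chromosome 14, 55013823 to 55013882 (0.07 ± 0.05, limma, adjusted p = 0.243). Its other probe, at 55013815 to 55013846 and thus partly on the same bases, gave -0.01, 0.23, 0.13 and -0.13 (0.05 ± 0.15, limma over all probes, adjusted p = 0.562). Both probes were dim, with processed intensities between 45.6 and 57.4 by the brighter one. Tpsb2, a tryptase, read 0.14, -0.03, -0.21 and -0.06 by a probe at chromosome 17, 25095113 to 25095172 (-0.04 ± 0.14, adjusted p = 0.645), with single arrays on both sides of 0. The Tpsb2 probe was dim too, with processed intensities between 35.4 and 56.5. With the processed signals its log2 ratio was -0.20 (limma, adjusted p = 0.297). With median centring the brighter Mcpt4 probe lay at -0.028 and the other at -0.11, and without replicate 2 the latter lay at -0.0020. Without replicate 3 Tpsb2 lay at 0.016.

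Cma1 and Mcpt4 belong to a cluster of related serine protease genes on chromosome 14. In GRCm38.p6 it runs over 321 kb from Cma1 to Gzmb and holds 15 genes. Of these, 6 were tested, and 1 was higher and 1 lower, while 27.2% of all genes were called. The higher one was Mcpt8, a protease of basophils, which read 0.18 ± 0.08 (limma, adjusted p = 0.0389). Its probe was well above background in 3 hypomorph pools and in none of the wild type. It was thus kept for the test only through the hypomorph, and its call is not independent of that filter. The lower bound of its ratio, taken with loess only, was 1.07-fold higher, is open to dye bias and used the wild type's own signal on 2 arrays. With median centring the log2 ratio of Mcpt8 was -0.068, in the other direction, and without replicate 3 it was 0.17 with an adjusted p of 0.133. Ctsg, the gene of cathepsin G, read -0.10 ± 0.17 (adjusted p = 0.311) and Gzmb, a granzyme, -0.01 ± 0.05 (adjusted p = 0.913). Mcpt9 in this cluster was not well above background on any array, as were Mcpt1 and Mcpt2. Probe sequences were not at hand, so how far probes of these related genes bind each other's RNA was not tested.

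Of the 13 granule protease genes on the array, 10 were tested, with 1 higher (Mcpt8), 2 lower (Cpa3 and Cma1) and 7 not called. Their median log2 ratio was -0.03, and 30% were called, beside 27.2% of all genes. With a stricter filter on dim probes Mcpt8 dropped out, and of 7 tested genes 2 were lower and none was higher. The remaining members were the tryptases Tpsab1 (-0.16 ± 0.39, adjusted p = 0.419) and Tpsg1 (-0.01 ± 0.06, adjusted p = 0.819) and the basophil protease Prss34 (0.16 ± 0.18, adjusted p = 0.149). Tpsab1 varied most, from -0.65 on array 3 to 0.30 on array 4. With median centring 5 of the 10 were lower and none was higher, and there Tpsab1 (-0.35, adjusted p = 0.0134), Tpsg1 (-0.23, adjusted p = 0.0138) and Ctsg (-0.20, adjusted p = 0.037) were called. Probes as dim as the brighter Mcpt4 probe, at 7.14, had a median of -0.11 under that setting. Ctsg was similarly dim, at 7.10, and the like medians for Tpsab1 and Tpsg1 were not taken.

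The IgE receptor was measured by its 2 subunits that few other cells make. Fcer1a, the chain that binds IgE, was read at chromosome 1, 175059409 to 175059468, with log2 ratios of -0.26, -0.15, -0.10 and -0.04. All 4 lay below 0, as the same sign on 4 of 4 arrays did for 52% of the genes with 4 values, and the size fell short of the threshold (-0.14 ± 0.09, limma, adjusted p = 0.0907). With median centring it passed at -0.29 (adjusted p = 0.00715), as it did with the channels fitted separately (adjusted p = 0.0481). Median centring left probes of like brightness at a median of -0.15, and 13.6% of them lay below Fcer1a there, beside 12.5% after loess. Ms4a2, the beta chain that amplifies the signal, was read at chromosome 19, 11684333 to 11684392, with 0.02, -0.04, 0.26 and -0.12 (0.03 ± 0.17, adjusted p = 0.761). It was well above background on 3 of 4 arrays in each genotype, and the mean turned to -0.047 without replicate 3. With median centring Ms4a2 read -0.18, where probes of like brightness had a median of -0.17.

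Of the receptor and its signalling, 26 genes were tested, the subunits Fcer1a, Ms4a2 and Fcer1g included, with 2 higher, none lower and a median of 0.02. The share called, 7.69%, is below the 27.2% of all genes. Vav1, a signalling adaptor and exchange factor of blood cells, was among the higher genes (0.19 ± 0.03, limma, adjusted p = 0.0181). Its call was lost without replicate 2, 3 or 4, with adjusted p from 0.059 to 0.0803. With median centring 13 were higher and 1 was lower, at a median of all genes of 0.13.

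Hdc makes histamine from histidine. Its probe at chromosome 2, 126285221 to 126285280, was well above background on 4 of 4 arrays in both genotypes, but the scanner software marked the local background of 3 of the 4 spots as unusual. With those background marks ignored, an alternative chosen after seeing the data, the wild type pools read 14.49, 14.50, 14.89 and 14.87 in normalised log2 intensity and the hypomorph pools 14.42, 14.31, 14.72 and 14.67. The hypomorph pool was the lower of each pair, by less than the arrays differed among themselves. The log2 ratios were -0.07, -0.19, -0.17 and -0.21. All 4 lay below 0, and the mean was -0.16 ± 0.06 (limma, adjusted p = 0.0381), and probes of like brightness had a median of -0.05. With the processed signals and marked spots kept, it was -0.13 ± 0.09 (adjusted p = 0.13), so the call rests on the setting. With background marks ignored, the Hdc probe had a mean brightness of 14.61, beside 9.94 for Cpa3 and 10.17 for Cma1. Which cells gave its signal was not tested.

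Of the histamine genes besides Hdc, 6 were tested, 3 were lower and none was higher, and their median log2 ratio was -0.10. That is 50% called, beside 27.2% of all genes. The lower ones were Slc22a3, a transporter that carries histamine out of the extracellular space (-0.28 ± 0.10, adjusted p = 0.0152), Slc18a2, the vesicle transporter that loads histamine into granules (-0.22 ± 0.12, adjusted p = 0.0352), and Hnmt, an enzyme that inactivates histamine (-0.15 ± 0.06, adjusted p = 0.0464). The Slc22a3 probe was well above background in 4 wild type but only 2 hypomorph pools, so it was kept for the test only through the wild type. Its ratio reached -0.87 with the processed signals. With a stricter filter on dim probes Slc22a3 dropped out, and 2 of 5 genes were lower. None of the 3 lower genes passed without replicate 2 (adjusted p = 0.0673, 0.125 and 0.159) or without replicate 3 (0.0628, 0.115 and 0.142). Hnmt was called under 9 of 20 alternatives and Slc18a2 under 16, and the other Slc18a2 probe read -0.16 ± 0.07 (limma over all probes, adjusted p = 0.0514). Aoc1, the diamine oxidase (-0.04 ± 0.34), Maob, a monoamine oxidase (0.14 ± 0.10), and the receptor Hrh3 (0.11 ± 0.17) were not called, and Hrh1, Hrh2 and Hrh4 were too dim to be tested. With median centring 2 of the 6 genes were lower and 1, Maob, was higher (0.45, limma, adjusted p = 0.00109). Hnmt lay at -0.05 under that setting (limma, adjusted p = 0.577). The processed signals left 1 gene of the list called, and it was lower.

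Kit and Kitl form a receptor and ligand pair, and in the hypomorph they were called in opposite directions. Kit was read by 10 spots of 1 probe at chromosome 5, 75937959 to 75938018. The wild type pools read 12.78, 12.73, 12.63 and 12.57 in normalised log2 intensity and the hypomorph pools 12.90, 12.90, 13.03 and 12.74. The hypomorph pool was the higher of the pair on every array, although the highest wild type value lay above the lowest hypomorph value. The log2 ratios were 0.12, 0.17, 0.40 and 0.17 (0.21 ± 0.13, 1.16-fold higher, limma, adjusted p = 0.0433). The call was lost with the processed signals (0.24, adjusted p = 0.0516), with plain background subtraction (0.23, adjusted p = 0.0548) and without replicate 2 (0.23, adjusted p = 0.122), 3 (0.15, adjusted p = 0.121) or 4 (0.23, adjusted p = 0.0904). Median centring moved it to 0.48 (adjusted p = 2.47e-04), where probes of like brightness had a median of 0.25, and 90.2% of them lay below Kit with either normalization.

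Kitl was read by 10 spots of a bright probe at chromosome 10, 99529535 to 99529594, and by 1 spot of a dimmer probe at 99506434 to 99506493. By the bright probe, the wild type pools read 14.00, 13.94, 13.92 and 13.81 in normalised log2 intensity and the hypomorph pools 13.64, 13.45, 13.54 and 13.47. All hypomorph pools lay below all wild type pools in these values, which were not scaled between arrays, and the share of all genes that do so was not taken. The log2 ratios were -0.37, -0.48, -0.38 and -0.34 (-0.39 ± 0.06, 1.31-fold lower, limma, adjusted p = 0.00391). The dimmer probe gave -0.15, -0.67, -0.51 and -0.20 (-0.38 ± 0.25, limma over all probes, adjusted p = 0.0332), the same mean with a wider spread. That probe missed the threshold with the processed signals (adjusted p = 0.0734) and without replicate 2, 3 or 4 (adjusted p = 0.113, 0.115 and 0.0522).

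The bright Kitl probe was called under 19 of 20 alternatives and lost its call with median centring, where its log2 ratio was -0.04 (adjusted p = 0.651). At its brightness, median centring left the 2078 like probes at a median of 0.30, beside -0.04 after loess. Kitl stood low among them under both, with 4.86% of those probes lower with median centring and 5.15% after loess. The dimmer probe, at a brightness where the like probes had a median of 0.06 under median centring, read -0.31 there (limma over all probes, adjusted p = 0.0181).

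**Figure D3:**
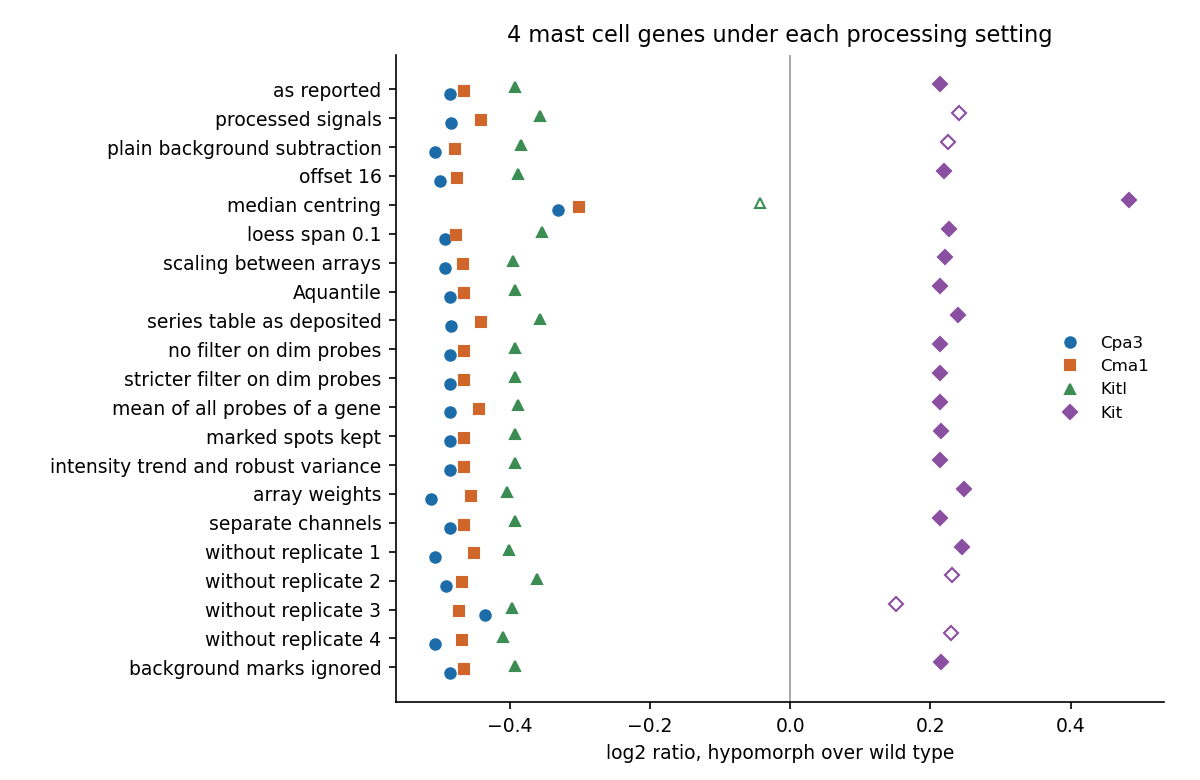
Mean log2 ratio of Cpa3, Cma1, Kitl and Kit as reported and under each alternative setting, filled where the gene was called at an adjusted p under 0.05 and open where it was not. Cpa3 and Cma1 are filled throughout, Kitl is open only with median centring, at -0.04, and Kit is open under 5 of the 20 alternatives.

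The replicate spots show how much of the spread lay within an array. The SD over the Kit spots of an array was between 0.010 and 0.038, and over the Kitl spots between 0.016 and 0.021. The SD between arrays was 0.13 for Kit and 0.06 for Kitl, so arrays differed by more than spots of 1 array did. On array 3, the Kit spots lay between 0.36 and 0.43, and on the other arrays the highest Kit spot was at 0.223.

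**Figure D4:**
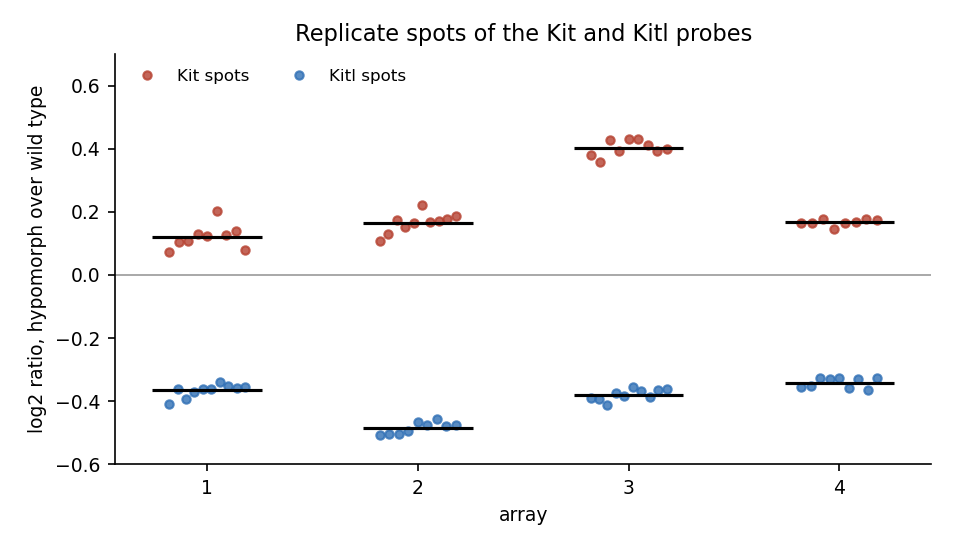
Log2 ratio of hypomorph over wild type of each replicate spot of the Kit probe and of the bright Kitl probe on the 4 arrays, with the mean per array as a black bar. Every Kit spot lay above 0 and every Kitl spot below 0, and the Kit spots of array 3, with a mean of 0.40, stood apart from those of the other arrays.

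Among 24 tested genes of Kit and its signalling, both genes of the pair included, 3 were higher and 5 lower, at a median of 0.00. That is 33.3% called, beside 27.2% of all genes. Jak2, a kinase of cytokine receptors (-0.41 ± 0.07, n = 3, adjusted p = 0.0088), Pik3r1, a regulatory subunit of PI3 kinase (-0.22 ± 0.06, adjusted p = 0.0176), and Adam17, a protease that sheds membrane proteins (-0.28 ± 0.12, adjusted p = 0.019), were lower. Jak2 was not called without replicate 2 (-0.17, adjusted p = 0.105), without replicate 3 (-0.20, adjusted p = 0.0829) or with median centring (-0.18, adjusted p = 0.123), and its other probe read -0.19. Adam17 was not called without replicate 2 (adjusted p = 0.0808) or 4 (0.0617), and lay at -0.025 with median centring. With median centring Pik3r1 lay at 0.07 and 11 genes of the list were higher and none was lower. Without replicate 2, 1 gene of the list was called, and 2 were without replicate 3.

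Mast cells also depend on transcription factors and on signals that draw or sustain them. Of 16 factors tested, 1 was higher and 2 were lower, a share of 18.8% beside 27.2% of all genes. Gata2, which sustains the mast cell programme and also acts in endothelium, was lower (-0.19 ± 0.06, adjusted p = 0.0271), with its other probe at -0.24, but it lay at 0.16 with median centring. Lyl1, a blood transcription factor, was lower (-0.21 ± 0.10, adjusted p = 0.0305; 0.05 with median centring), and Fli1, an ETS factor of blood and endothelium, was higher (0.22 ± 0.05, adjusted p = 0.015), while its other probe read -0.03. No gene of this list was called without replicate 2 or without replicate 3, and with median centring 8 were higher and none was lower, at a median of 0.19.

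Of 16 tested genes of mast cell growth and attraction, 7 were higher and 4 lower, a share of 68.8% beside 27.2% of all genes. The highest were Ccl11, a chemokine that draws eosinophils (1.09 ± 0.10, adjusted p = 0.0010), and Ccl2, which draws monocytes (0.89 ± 0.05, adjusted p = 0.0010). Il33, an alarmin that activates mast cells, was lower on the 3 arrays that measured it (-0.60 ± 0.12, n = 3, adjusted p = 0.00613). Il3, Il4, Il5, Il9 and Il10, cytokines known to act on mast cells, were not well above background on any array. Between 3 and 10 genes of the list were called when 1 array was left out.

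Among the receptors on the mast cell surface, 3 of 26 were higher and 3 lower, at a median of -0.03. The share called was 23.1%, beside 27.2% of all genes. Cysltr1, a leukotriene receptor (-0.65 ± 0.12, n = 3, adjusted p = 0.00519), and Il4ra, the receptor chain for interleukin 4 (-0.55 ± 0.04, adjusted p = 0.00156), were lower and were called under every alternative in which they were tested. Ptger3, a prostaglandin receptor (0.28 ± 0.08, adjusted p = 0.0108), and Pilra, an inhibitory receptor (0.28 ± 0.06, adjusted p = 0.00938; 0.0604 without replicate 2), were higher. With median centring 7 of the 26 were higher and 3 lower. Many other cells carry these receptors.

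Of 21 tested genes of granule make-up and lipid mediators, 2 were higher and 7 lower, at a median of -0.02. The share called was 42.9%, beside 27.2% of all genes. Hpgds, the haematopoietic prostaglandin D synthase, was lower on the 3 arrays that measured it (-0.54 ± 0.13, n = 3, adjusted p = 0.00777) and was called under all 16 alternatives that tested it. Unc13d, which primes granules for release, was lower (-0.33 ± 0.05, adjusted p = 0.00585; -0.09 and not called with median centring), and so was Ndst2, which sulphates the heparin of mast cells (-0.19 ± 0.05, adjusted p = 0.0216). Ndst2 lay at 0.05 with median centring, and its adjusted p was 0.0747, 0.0863 and 0.0627 without replicates 2, 3 and 4. Vamp8, a membrane fusion protein, was higher (0.34 ± 0.08, adjusted p = 0.00695), whereas its other probe read -0.01. Without 1 array, the list's genes called numbered between 2 and 6, and with median centring 12 were higher and 2 lower, at a median of 0.23.

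**Figure D5:**
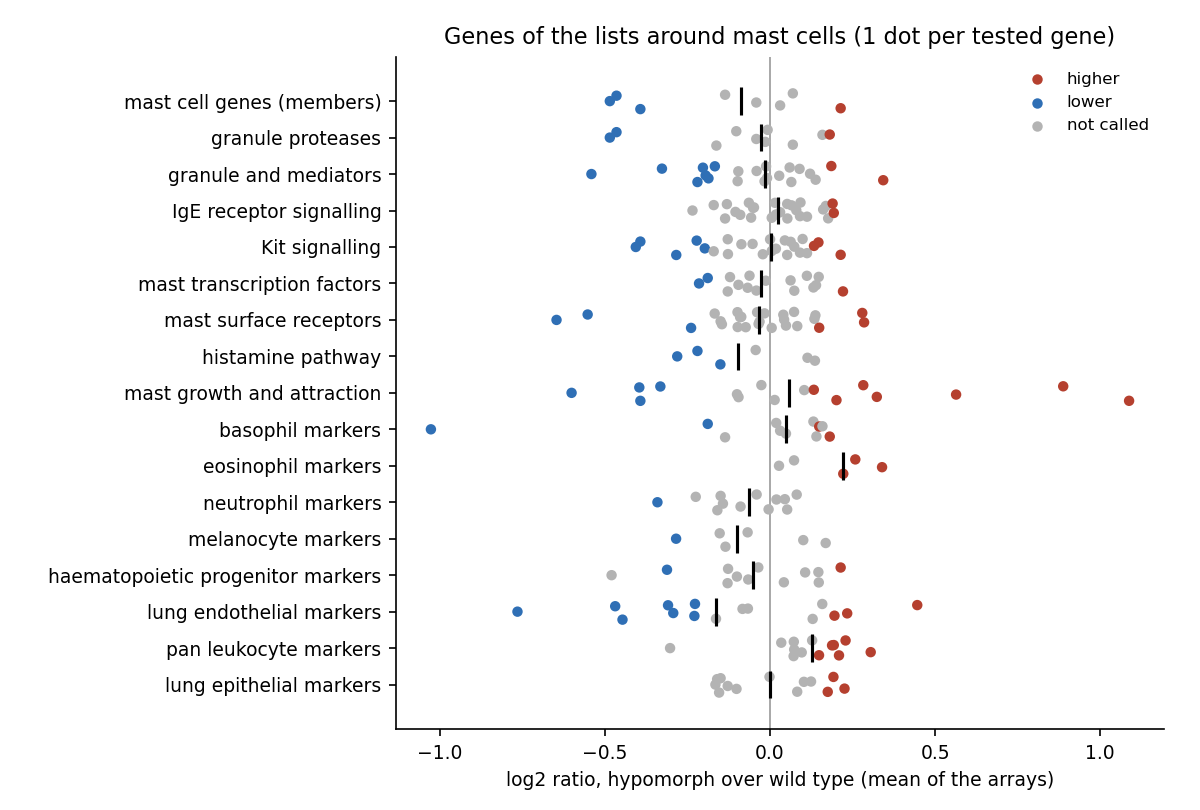
Mean log2 ratio of each tested gene in the lists around mast cells and in marker lists of other cell types, coloured by the call, with the list median as a black bar. Cpa3, Cma1 and Kitl lie below most genes of their lists, while the list medians lie between -0.16 for endothelial markers and 0.22 for eosinophil markers.

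Several markers of other cells moved beside the mast cell genes, and their part in the results above was not tested. Of 13 pan-leukocyte markers, 6 were higher and none was lower, at a median of 0.13. That is 46.2% called, beside 27.2% of all genes. Among the higher ones were the actin regulator Coro1a (0.30 ± 0.04, adjusted p = 0.00616), Vav1, the small GTPase Rac2 (0.21 ± 0.05, adjusted p = 0.0183) and Arhgdib, a GTPase regulator (0.19 ± 0.07, adjusted p = 0.0289). The summed intensity of the list ran from 50503 to 56594 over the wild type pools and from 57158 to 61460 over the hypomorph pools, for the 12 genes with 4 values. Without replicate 2, 1 gene of the list was called, and likewise 1 without replicate 3, and 2 were without replicate 4. Of 15 lung endothelial markers, 3 were higher and 7 lower, at a median of -0.16, which is 66.7% called, beside 27.2% of all genes. When 1 array was left out, between 4 and 11 genes of this list were called, with the fewest without replicate 2. The list's summed intensities ran from 208736 to 225978 in the wild type and from 175789 to 203365 in the hypomorph over 11 genes. The lung capillary marker Car4 was lower (-0.76 ± 0.15, adjusted p = 0.00207). The peptide gene Apln was lower (-0.47 ± 0.09, n = 3, adjusted p = 0.00754), but not called with median centring (-0.21, adjusted p = 0.0896). Its receptor gene Aplnr was higher (0.45 ± 0.10, n = 3, adjusted p = 0.00956) and was called under all 19 alternatives that tested it. Cldn5, a tight junction gene, was lower (-0.31 ± 0.10, adjusted p = 0.0105) but lay at 0.29 with median centring, where 10 of the 15 were higher and 1 was lower.

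Of the 13 epithelial markers tested, 3 were higher and none was lower, at a median of -0.00, a share of 23.1% beside 27.2% of all genes. Summed intensities ran from 266136 to 294624 in the wild type and from 275012 to 308545 in the hypomorph over 9 genes. The higher ones were Cdh1 (0.23 ± 0.09, adjusted p = 0.0225) and Epcam (0.17 ± 0.09, adjusted p = 0.0483), which encode adhesion proteins, and Nkx2-1, the gene of a lung transcription factor (0.19 ± 0.09, adjusted p = 0.0374). Cdh1 and Nkx2-1 were each called under 14 of 20 alternatives and Epcam under 11. No gene of the list was called without replicate 2 or without replicate 3, and with median centring 12 were higher, at a median of 0.49. With the processed signals none was higher and 2 were lower. With the series table, of 15 genes tested, none was higher and 4 were lower. With a loess span of 0.1, 2 were higher and 3 lower, and with marked spots kept 5 were higher and 2 lower. The direction of the list's calls thus rests on the setting.

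Cells that share genes with mast cells were looked at in the same way. Of 11 basophil markers tested, 2 were higher and 2 lower, which is 36.4%, beside 27.2% of all genes. With a stricter filter on dim probes Mcpt8 dropped out, and of 7 tested 1 was higher and 2 were lower. Summed intensities ran from 34832 to 43585 in the wild type and from 30508 to 38134 in the hypomorph. Mcpt8, Ms4a2 and Fcer1a were dim, at 6.37, 6.50 and 6.81 log2 units, so the sum mostly follows brighter genes of the list. The list shares Fcer1a, Ms4a2, Mcpt8 and Gata2 with the genes above, and the largest change was in Ifitm1, an interferon-induced gene (-1.03 ± 0.07, adjusted p = 0.0010). Il3ra, the receptor chain for interleukin 3 and also among the surface receptors, was higher (0.15 ± 0.04, adjusted p = 0.0394), but not without replicate 2, 3 or 4 (adjusted p = 0.122, 0.152 and 0.095). The basophil cytokine Il4 was not well above background on any array. Of the 10 eosinophil markers on the array, 5 were tested, and 60% of them were called, beside 27.2% of all genes. The ribonuclease genes Ear1 (0.34 ± 0.13, adjusted p = 0.0121), Ear6 (0.22 ± 0.09, adjusted p = 0.0254) and Ear10 (0.26 ± 0.13, adjusted p = 0.0286) were higher, closely related genes whose probes may not tell them apart. None of the 3 passed without replicate 2 or without replicate 3, and Epx and Prg3, the granule proteins that define eosinophils, were not well above background on any array. Their summed intensity ran from 9557 to 15789 in the wild type and from 12587 to 17305 in the hypomorph.

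Kit also marks melanocytes and blood-forming progenitors, and which cells gave its signal was not tested. Its probe had a mean brightness of 12.79 log2 units. Those of Cpa3 and Cma1 lay at 9.94 and 10.17, and those of Ms4a2 and Fcer1a at 6.50 and 6.81. Brightness also depends on the probe, so these values are not amounts of RNA. Of 6 melanocyte markers tested, Mlana alone was called, and it was lower (-0.28 ± 0.14, adjusted p = 0.0222; 0.0846 and 0.0624 without replicates 2 and 3). The pigment enzyme genes Tyr and Tyrp1 were not well above background on any array, and the summed intensity of the list ran from 1284 to 1510 in the wild type and from 1294 to 1412 in the hypomorph. Of 12 progenitor markers, Kit was the only higher one and Slamf1 the only lower one (-0.31 ± 0.19, n = 3, adjusted p = 0.049). Slamf1 was not called with the processed signals (adjusted p = 0.12), the series table (0.0517) or the mean of a gene's probes (0.0504), and no marker of the list was called without replicate 2, 3 or 4. The summed intensity of the list ran from 21633 to 22823 in the wild type and from 21854 to 24417 in the hypomorph. Of 12 neutrophil markers, Mpo, the myeloperoxidase gene, was lower (-0.34 ± 0.20, adjusted p = 0.0293) and was lost without replicate 2, 3 or 4 (adjusted p = 0.113, 0.0995 and 0.0785). The shares called were 16.7% of melanocyte, 16.7% of progenitor and 8.33% of neutrophil markers, beside 27.2% of all genes.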

How the data were processed

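Total RNA of fetal lungs was measured on 4 two-colour Agilent arrays, on 1 slide and in 1 scan. The scanner software was Agilent Feature Extraction, version 9.5.1 in the submitters' processing notes. Deposited intensities are scanner values, per the file headers, as mean and local background signals and as processed signals already background-subtracted and dye-normalized. The deposited log10 ratio is that of processed red over green, per the file headers. The deposited series table holds log2 values, which equal log2 of processed red over green with a correlation of 1 and column medians of -0.02, -0.00, -0.05 and -0.02, so scale, centring and direction are settled.

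From these, background was corrected in limma 3.58.1 (R 4.3.3) by normexp on the mean and local background intensities, with an offset of 50, and normalized within arrays by loess (span 0.3, control spots at weight 0). Control spots and spots marked as unusual, 4.92% to 5.12% per array, were left out, and spots of a probe were averaged. A probe needed values on 3 or more arrays, and a signal well above background in either channel on 3 or more. Each gene was represented by its brightest such probe, so a gene with several probes has 1 value in the gene test. Normalised intensities were not scaled between arrays, except for sums over lists and the bound for Mcpt8, which used Aquantile as well. That bound sets the brighter genotype's mean against the dim genotype, taking for each array the larger of the probe's signal and the lowest signal that still counted as well above background, and it is open to dye bias. No spot of a mast cell gene was saturated. Current symbols were assigned to 24375 of 41174 probes by their RefSeq accessions, and positions of probes are those of the files, in build mm8. The log2 ratio was tested against 0 with limma's lmFit and eBayes and Benjamini-Hochberg adjustment over all genes, or over all probes where stated. With 4 arrays, their number limits the precision. The fit alone was also run on simulated ratios, with changes larger than those of the mast cell genes. That run does not show how well changes as small as theirs are found.

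The mast cell genes and the lists around them were chosen with earlier results of these data known. Named besides the 9 genes were, from each list, up to 4 called genes with the smallest p, and every granule protease and histamine gene. A called gene of the IgE receptor signalling list is not reported here. Genes named only as not well above background were chosen after their values were seen. No gene was ranked by likeness over 4 arrays.

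The alternatives were median centring, a loess span of 0.1, an offset of 16, plain background subtraction, the processed signals, scaling or Aquantile between arrays, the series table, no or a stricter filter on dim probes, the mean of a gene's probes, marked spots kept, an intensity trend with robust variance, array weights, separate channels, leaving out each array, and, chosen after seeing the data, background marks ignored. They are not independent checks. Aquantile, separate channels and an intensity trend leave a gene's ratio as it was, and the series table holds the processed ratios. Filters and marks matter only for genes whose probes they touch.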

Additional observations from a re-analysis of the deposited data

Results flagged for a closer look

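In 3 of 53 groups of 4 values tested, 1 array stood farther from the others than Dixon's 95% limit allows, where chance gives about 1 in 20. The Kit log2 ratio on array 3, 0.40, lay above those of the other arrays, which ran from 0.12 to 0.17. For Mlana, a melanocyte marker, array 3 read -0.49, below the others. For Epcam, an epithelial adhesion gene, array 4 read 0.036, below the others.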

How the results depend on the processing

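Between 3 and 5 of the mast cell genes were called under every alternative run, and between 4 and 6 of their probes under the 7 alternatives run by probe. With median centring, 10778 genes were called, 8335 higher and 2443 lower, at a median of all genes of 0.13, beside 2880 higher and 2728 lower as reported, and of the genes in the lists 117 were called, 92 higher and 25 lower, beside 68 of 208. Leaving out 1 array at a time gave between 1449 and 5698 called genes in all, with the fewest without replicate 2, and between 18 and 66 in the lists. These counts were 2043 and 20 without replicate 3, and 3533 and 31 without replicate 4.

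With median centring, log2 ratios changed sign for Mcpt4 (-0.028, and -0.11 by its dimmer probe), Ms4a2 (-0.18), Mcpt8 (-0.068), Gzmb (0.15), Hrh3 (-0.028), Aoc1 (0.040), Ndst2 (0.048), Pik3r1 (0.069), Gata2 (0.16), Lyl1 (0.052) and Cldn5 (0.29). Values near 0 also changed sign elsewhere. Tpsg1 read 0.0082 with plain background subtraction. Gzmb read 0.0028 with plain background subtraction, 0.022 with the processed signals and the series table and 0.0011 with array weights. Leaving out 1 array at a time gave Gzmb from -0.027 to 0.013 (above 0 without replicates 1 and 3), the dimmer Mcpt4 probe from -0.0020, without replicate 2, to 0.12, Tpsb2 from -0.10 to 0.016, without replicate 3, and Aoc1 from -0.15 to 0.090, above 0 without replicates 3 and 4. Ms4a2 could be tested there only without replicate 3 and read -0.047. The cause of these changes was not tested.

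With the processed signals, Fcer1a read -0.36 (limma, adjusted p = 0.126). Each ratio already pairs the 2 pools of an array, and no further block by replicate could be fitted to 4 ratios of 1 group. With no dye swap and 1 slide, dye and genotype cannot be told apart.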
